A study of Mus musculus with 4 samples.

Results

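Metabotropic glutamate receptors and Homer scaffolds were compared between MP amacrine cells and MP bipolar cells of the mouse retina. The genes were Grm2, Grm3, Grm4, Grm5, Grm7, Grm8, Homer1, Homer2 and Homer3, chosen by name, and every probe set that the platform annotation gives to exactly 1 of them was used. They made up 9 of the 18194 genes with such probe sets, and 19 probe sets measured them. Grm6, the receptor of ON bipolar dendrites, was left out by this choice.

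The MP transgene marks some retinal neurons with the fluorescent protein CFP, and the VC1.1 antibody binds amacrine but not bipolar cells. MP amacrine cells were sorted as CFP+VC1.1+ retinal neurons, and MP bipolar cells as CFP+VC1.1– neurons after a magnetic column had taken out VC1.1+ cells. Each group had 2 replicates from different litters, and each replicate held about 1000 cells, measured on 1 Affymetrix array after 2 rounds of amplification. All came from papain-dissociated retinas at postnatal day 6, from offspring of transgenic males and non-carrier females on a mixed C57Bl6 x CD1 background, so both groups carried the transgene and the sorts differed in VC1.1. The cells are those that the MP transgene marks, not all amacrine or bipolar cells.

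Metabotropic glutamate receptors are G protein-coupled receptors that respond to the transmitter of photoreceptors and bipolar cells. Group I receptors, such as the Grm5 product, act through Gq and phospholipase C, whereas group II (Grm2, Grm3) and group III (Grm4, Grm7, Grm8) receptors act through Gi/o and lower cAMP. Homer proteins bind group I receptors through their EVH1 domain and tie them to Shank scaffolds and to intracellular calcium release channels.

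The sorted cells carried the markers of their labels. MP amacrine cells exceeded MP bipolar cells in 8 of 11 tested amacrine markers and fell below them in none, where 13.5% of all tested genes were called in either direction, and Pax6, Slc32a1 and Tfap2c were the brightest. Testing required a value above the array median on 2 or more arrays. Of the 8 markers, 4 met that rule only through the MP amacrine arrays, so they had to differ. The summed intensity of the 12 amacrine markers measured was 6622 and 5650 on the MP amacrine arrays, against 1184 and 1199 on the MP bipolar arrays. Among 13 tested bipolar markers, MP amacrine cells were called lower in 8 and higher in none. Of the 8, 3 met that rule only through the MP bipolar arrays. Of the 13, 2 had a positive log2 fold change, Isl1 and Prkca, named after their values were seen. Isl1 read 1055 and 925 in MP amacrine cells and 574.5 and 684.3 in MP bipolar cells (0.64, limma adjusted p = 0.0835). Prkca read 489.9 and 478.0 against 393.8 and 417.9 (0.25). The sums over the 15 bipolar markers measured were 8888 and 8364 against 18859 and 19425. The brightest were Prdm8, Otx2 and Cabp5, of which Prdm8 was not called and alone read 4600 and 4694 in MP amacrine cells and 5360 and 5465 in MP bipolar cells. Markers of other cells were also read. The sums were 8570 and 5902 against 6725 and 7421 for photoreceptor markers, led by Sag, Nrl and Crx, and 4629 and 4286 against 2252 and 2848 for Müller glia markers, led by Glul, Vim and Clu. MP amacrine cells were higher in 3 of 7 tested Müller glia markers and lower in none, and without MP amacrine replicate 1 they were higher in 4 and lower in 1. Of the 3 Müller glia markers higher with all 4 arrays, 1 met the rule for testing only through the MP amacrine arrays. Ganglion cell markers, led by Thy1, Nefm and Nefl, summed to 3955 and 1964 against 2891 and 3754. Thy1 alone read 805.8 and 1455 against 2462 and 3415. Nefm read 1631 and 135.7 against 47.7 and 35.0, and Nefl 1102 and 87.5 against 68.6 and 45.7. Horizontal cell markers, led by Ndrg1, Tfap2b and Calb1, summed to 3013 and 1660 against 1250 and 1179, and Tfap2b is on the amacrine list as well. Microglial, vascular and blood markers, led by Ctss, C1qb and C1qa, summed to 1026 and 3339 on MP amacrine arrays and 1525 and 412 on MP bipolar arrays. No marker on any list lay at 1 or below on every array. Below the array median on every array were 5 of 14 photoreceptor, 3 of 11 Müller glia, 2 of 10 ganglion cell and 4 of 12 microglial, vascular and blood markers, and the part of other cells in the values of the receptor and Homer genes was not tested. The array of MP amacrine replicate 2 stood apart in the actin control probe sets, whose 3-prime signal exceeded the 5-prime signal by 3.82 on the log2 scale, against 1.89 to 2.13 on the other 3 arrays.

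Intensities are the authors' deposited values on a linear scale, and array medians lay between 44.5 and 47.2. Differences are log2 fold changes of intensity + 16, MP amacrine over MP bipolar, which understates the differences of dim genes. The brightest probe set represented each gene, and testing required it to exceed the median of its array in 2 or more of the 4 samples. Of the 9 genes 7 were tested, and Grm2 and Grm3 were too dim. Homer2 was the only tested member that passed the test, and it was lower in MP amacrine cells. That is 1 of 7, where 13.5% of all 11583 tested genes were called, 6.54% toward MP amacrine and 6.92% toward MP bipolar cells (limma, adjusted p under 0.05). No Grm gene passed, and neither did Homer1 or Homer3. In 3 of the 7, namely Grm4, Homer1 and Homer2, the arrays of the groups did not overlap, as held for 53.3% of all tested genes. The median size of the difference was 0.37 over the 7 and 0.26 over all tested genes. In bulk samples of sorted cells, fewer cells that express a gene and less of its RNA per cell cannot be told apart.

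**Figure D1:**
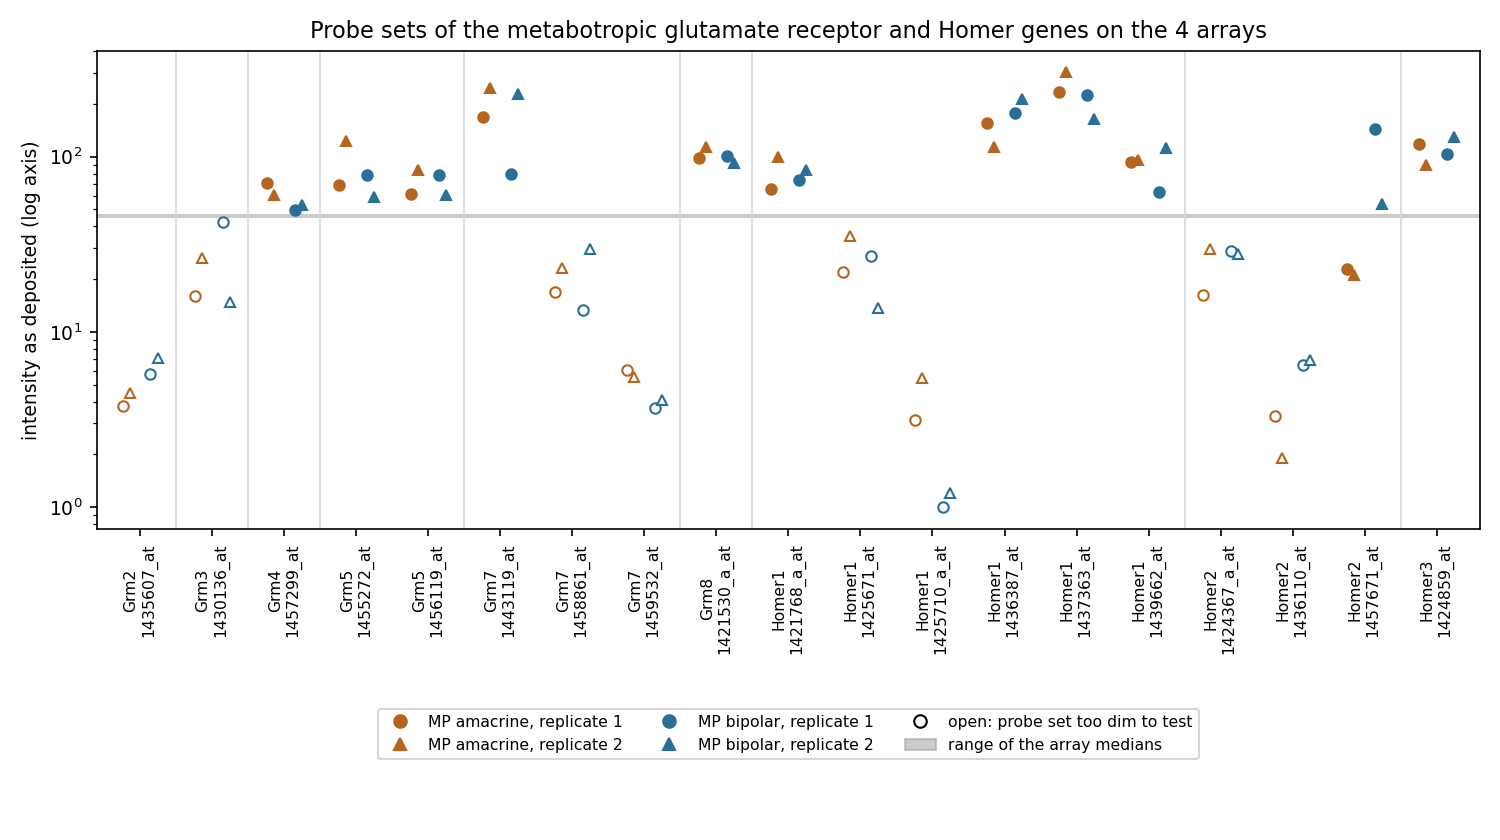
Deposited intensity (log axis) of the 19 probe sets of the 9 genes on each array, MP amacrine arrays in brown left of MP bipolar arrays in blue, replicates 1 and 2 as circles and triangles. Filled symbols are the 11 probe sets bright enough to test, open symbols the other 8, and the grey band spans the array medians. The Homer2 probe set 1457671_at has both MP amacrine arrays below the band and both MP bipolar arrays above it.

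Grm5 encodes mGluR5, a group I receptor and the main receptor partner of Homer proteins among these genes. Its brighter probe set, 1455272_at, had intensities of 68.8 and 122.5 on the MP amacrine arrays and 78.5 and 58.5 on the MP bipolar arrays. MP amacrine replicate 2 was the highest, and the groups overlapped. The log2 fold change was 0.37 (SE 0.28, 95% interval -0.28 to 1.02, adjusted p = 0.496, limma), and without MP amacrine replicate 2 it was 0.01. The other Grm5 probe set read 61.5 and 83.6 in MP amacrine cells and 79.1 and 60.8 in MP bipolar cells, a difference of 0.04. Neither probe set separated the groups, and the interval of the brighter one includes a level in MP amacrine cells up to 2.03 times that in MP bipolar cells on the offset scale.

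The group II receptors lay below the array median on every array. Grm2, which encodes mGluR2, read 3.79 and 4.46 in MP amacrine cells and 5.78 and 7.07 in MP bipolar cells, all below the 16th percentile of its array. Both MP bipolar values were the higher ones, but at this brightness the deposited table, which has no detection calls, does not show whether the RNA was present. Grm3, which encodes mGluR3, read 15.99 and 26.49 in MP amacrine cells and 42.57 and 14.87 in MP bipolar cells, with the highest and the lowest value both among the MP bipolar arrays. With no filter on dim probe sets, the log2 fold change was -0.16 for Grm2 (adjusted p = 0.438, limma) and -0.21 for Grm3 (adjusted p = 0.829, limma).

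The group III receptors Grm4, Grm7 and Grm8 were above the array median on all 4 arrays. These receptors lower transmitter release when present on axon terminals. Grm4, which encodes mGluR4, read 70.4 and 60.5 in MP amacrine cells and 49.7 and 52.8 in MP bipolar cells. The groups did not overlap, and the difference was small, with a log2 fold change of 0.27 (SE 0.20, 95% interval -0.20 to 0.74, adjusted p = 0.482, limma). Grm8, which encodes mGluR8, stayed within a narrow range over the 4 arrays, at 98.7 and 113.4 in MP amacrine cells and 101.3 and 91.8 in MP bipolar cells. Its log2 fold change was 0.12 (SE 0.21, 95% interval -0.37 to 0.60, adjusted p = 0.809, limma), so the upper end of the interval is 1.51-fold on the offset scale.

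Grm7 encodes mGluR7, a receptor with low affinity for glutamate found at release sites. Its probe set 1443119_at read 169.0 and 246.7 in MP amacrine cells and 79.2 and 228.1 in MP bipolar cells. The MP bipolar arrays lay 1.36 apart on the log2 scale, and the second of them fell between the MP amacrine arrays. The log2 fold change was 0.53 (SE 0.42, 95% interval -0.44 to 1.51, adjusted p = 0.514, limma). Its sign turned with 1 array, since it was -0.15 without MP bipolar replicate 1 and 1.21 without MP bipolar replicate 2. The other Grm7 probe sets were dim, at 16.9 and 23.1 against 13.3 and 29.7, and at 6.09 and 5.54 against 3.66 and 4.09, in MP amacrine and MP bipolar cells. Grm7 had the largest standard error of the 7 tested genes.

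**Figure D2:**
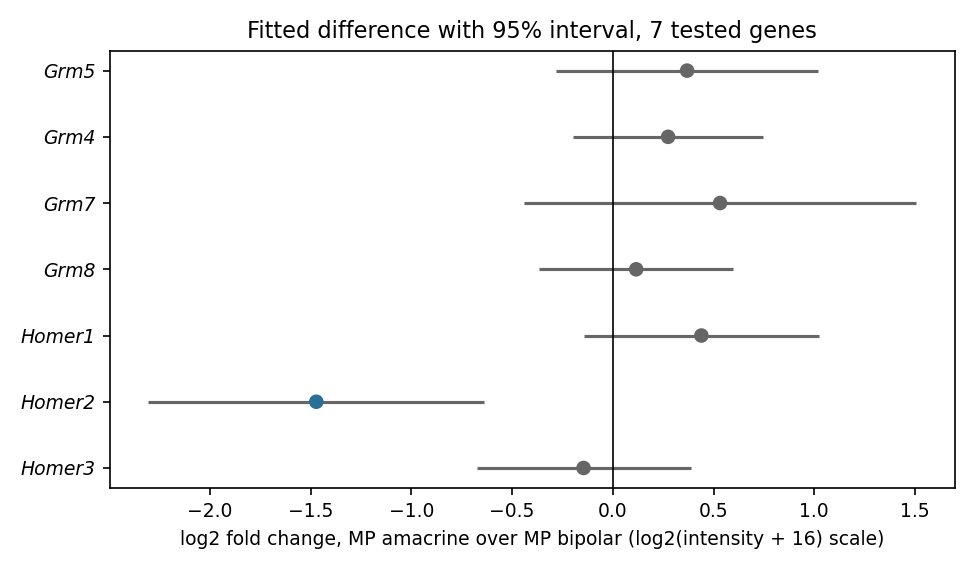
Log2 fold change (MP amacrine over MP bipolar, on the log2(intensity + 16) scale) of the 7 tested genes with the 95% interval from limma, 2 arrays per group. Homer2, in blue, at -1.47 is the only one with an adjusted p under 0.05, and the intervals of the others include 0.

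Homer1 is known for a short form, induced by neuronal activity, that lacks the coiled coil and uncouples the long forms from their partners. Its 6 probe sets differed in direction, and the sources used here do not say which form each reads. The brightest, 1437363_at, read 233.3 and 302.7 in MP amacrine cells and 224.0 and 163.9 in MP bipolar cells. The groups did not overlap, and MP amacrine cells were higher by 0.44 on the log2 scale, short of the threshold (SE 0.25, 95% interval -0.15 to 1.02, adjusted p = 0.346, limma). The second brightest, 1436387_at, went the other way without overlap, at 155.9 and 113.0 in MP amacrine cells and 178.2 and 214.9 in MP bipolar cells. Tested as a probe set of its own it gave -0.51 (SE 0.25, adjusted p = 0.315 over 23648 probe sets, limma).

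The other 2 Homer1 probe sets above the filter lay closer together. Probe set 1439662_at read 93.8 and 95.8 in MP amacrine cells and 62.8 and 112.9 in MP bipolar cells. Probe set 1421768_a_at read 65.3 and 100.1 against 74.0 and 84.3, and both overlapped between the groups. The dim probe sets 1425671_at and 1425710_a_at read 22.1 and 35.3 against 27.3 and 13.7, and 3.12 and 5.46 against 1 and 1.20. Homer1 RNA was therefore above the array median in both cell groups by 4 of its 6 probe sets, with no common direction between the groups.

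Immediate early genes were read beside Homer1, because its short form belongs to that class. MP amacrine cells were higher in 2 of 9 tested and lower in none (13.5% of all tested genes were called), and the median log2 fold change was 0.39, against -0.03 over all tested genes. Ier2 read 459.9 and 227.4 in MP amacrine cells and 74.8 and 79.4 in MP bipolar cells. The difference was 1.87 on the log2 scale (SE 0.32, limma adjusted p = 0.00641). Fos, a subunit of the AP-1 transcription factor, read 1628 and 2894 in MP amacrine cells and 1131 and 435.7 in MP bipolar cells. The difference was 1.60 on the log2 scale (SE 0.43, limma adjusted p = 0.0465). Fos was highest on the array of MP amacrine replicate 2 and lowest on that of MP bipolar replicate 2. The brightest Homer1 probe set had the same extremes. The second brightest, 1436387_at, had the reverse, with its lowest value (113.0) and its highest (214.9) on those arrays, and a link between Fos and Homer1 was not tested. The number of immediate early genes higher in MP amacrine cells depended on single arrays. It fell without MP amacrine replicate 2 or MP bipolar replicate 2, rose without MP amacrine replicate 1 and stayed the same without MP bipolar replicate 1. Papain dissociation and sorting preceded RNA extraction in both groups, and their part in these levels was not tested.

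Homer2 encodes a long, coiled-coil Homer protein, and its probe set 1457671_at gave the one called difference. It read 23.0 and 21.2 in MP amacrine cells and 143.7 and 53.8 in MP bipolar cells. Both MP amacrine arrays were below the array median and both MP bipolar arrays above it, and the MP bipolar arrays differed from each other by 1.19 on the log2 scale. The means were 22.1 ± 1.30 in MP amacrine cells and 98.7 ± 63.5 in MP bipolar cells (SD, n = 2 each). Homer2 fell by 1.47 on the log2 scale in MP amacrine cells (SE 0.36, 95% interval -2.31 to -0.64, adjusted p = 0.0322, limma). It passed the filter on dim probe sets only through the arrays of the group where it was high, and a probe set that passes in that way has to differ between the groups.

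The call was close to its threshold. It used a standard error moderated over all tested genes, not the spread of the Homer2 values alone. With every probe set above the filter tested on its own, no member probe set passed, where 9.46% of 23648 probe sets did, and the Homer2 probe set had an adjusted p of 0.0637 (limma, unadjusted p = 0.00673), the only 1 of 11 with an unadjusted p under 0.05, as 21.3% of all those probe sets had. Without MP amacrine replicate 1, MP amacrine replicate 2 or MP bipolar replicate 1 it was not called (adjusted p = 0.0715, 0.107 and 0.0818, limma), with log2 fold changes of -1.51, -1.44 and -0.88, whereas without MP bipolar replicate 2 it was -2.07 (adjusted p = 0.00192, limma). With no filter on dim probe sets its adjusted p was 0.176 (limma). The log2 fold change was negative under every alternative in which Homer2 was tested, but most of these could not have turned it. Because the groups did not overlap, leaving out 1 array or changing the offset could not change its sign. Filter, threshold, variance moderation and block leave the value as it is.

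Of the other Homer2 probe sets, both too dim to test, 1436110_at read lower in MP amacrine cells without overlap, at 3.32 and 1.90 against 6.44 and 6.88. Those values ranked from percentile 5.68 to 15.5 of their arrays, too dim to show whether the RNA was present. Among probe sets above the filter, 50.7% had groups without overlap. Probe set 1424367_a_at read 16.3 and 29.7 in MP amacrine cells and 29.0 and 28.0 in MP bipolar cells, with overlap. Ctss, a lysosomal protease gene and the brightest microglial marker, read 567.4 and 2665 on the MP amacrine arrays and 1003 and 2.27 on the MP bipolar arrays, and the part of microglial RNA in the Homer2 values was not tested.

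The promoter windows of Homer2 are shown because it was the one member called. RefSeq windows of 250 bases before and 50 after a start (GRCm38.p6) were found for 7 of the 9 genes, and Homer2 has 2, both on the minus strand of chromosome 7. Capitals mark the E-box CANNTG, the class of site that basic helix-loop-helix factors such as Neurod6 bind. It was searched on both strands, where it reads the same.
Homer2 start at chr7:81706876-81707175: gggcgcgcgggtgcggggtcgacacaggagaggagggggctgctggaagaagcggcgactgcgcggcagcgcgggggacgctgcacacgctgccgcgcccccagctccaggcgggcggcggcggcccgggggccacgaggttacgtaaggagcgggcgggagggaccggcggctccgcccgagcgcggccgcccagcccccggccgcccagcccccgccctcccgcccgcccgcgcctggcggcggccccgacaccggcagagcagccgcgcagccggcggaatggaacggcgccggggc
Homer2 start at chr7:81692916-81693215: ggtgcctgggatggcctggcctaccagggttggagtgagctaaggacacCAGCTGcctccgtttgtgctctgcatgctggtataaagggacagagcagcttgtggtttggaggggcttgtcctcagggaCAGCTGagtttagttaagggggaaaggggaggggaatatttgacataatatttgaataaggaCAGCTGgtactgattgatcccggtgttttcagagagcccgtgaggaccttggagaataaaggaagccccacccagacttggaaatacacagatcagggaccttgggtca
The GC-rich window at chr7:81706876-81707175 holds no E-box and the window at chr7:81692916-81693215 holds 3, each reading CAGCTG. Of all 32851 promoter windows of this length, 72.3% hold at least 1 E-box and 17.6% at least 3. The letters TAATCC, to which Otx-type homeodomain factors bind, were in neither window on either strand, and 7.06% of all windows hold them. A match is a description of the letters, and binding was not measured.

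The tested genes whose pattern over the 4 arrays was nearest to that of Homer2, by Euclidean distance of log2 values less their mean, were Cdh8 (distance 0.31), A230107N01Rik (0.33) and Elavl2 (0.38). Cdh8 encodes a type II cadherin and read 84.9 and 110.1 in MP amacrine cells and 495.3 and 213.9 in MP bipolar cells. Elavl2, an RNA-binding protein gene, read 161.1 and 191.2 against 633.9 and 367.0. They share with Homer2 a high value on the array of MP bipolar replicate 1. With 4 arrays in 2 groups, this likeness is a description only.

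Homer3, the third long Homer gene, read 118.2 and 90.1 in MP amacrine cells and 104.1 and 129.0 in MP bipolar cells. The groups overlapped, and the log2 fold change was -0.15 (SE 0.23, 95% interval -0.68 to 0.39, adjusted p = 0.777, limma). Its probe set was above the array median on all 4 arrays.

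**Figure D3:**
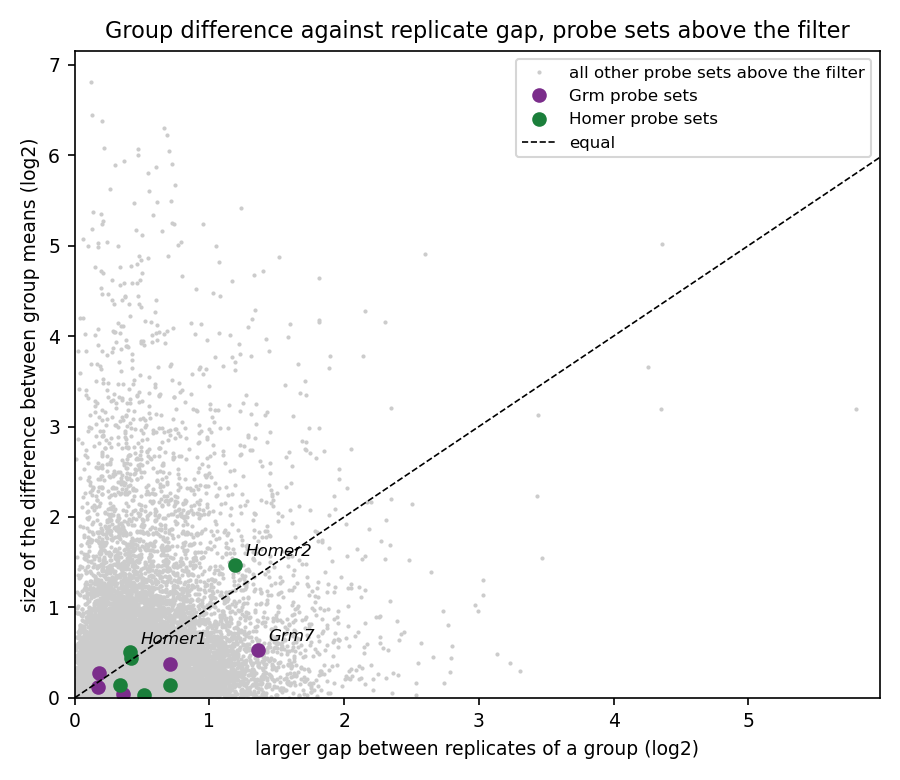
Size of the difference between group means (y axis, log2) against the larger gap between replicates of a group (x axis, log2) for all 23648 probe sets above the filter in grey, with the Grm probe sets in purple and the Homer probe sets in green. The dashed line marks equal values. Of the 11 member probe sets, 4 lie above it (Homer1 with 2, Grm4 and Homer2), against 38.3% of all.

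Replicate spread and the moderation of the fit together set the precision for the members. The fit (limma, trended eBayes) draws the variance of each gene toward that of genes of like brightness. For Homer2 the replicate gaps were 0.07 in MP amacrine and 1.19 in MP bipolar cells on the log2 scale. For Grm4 they were 0.18 and 0.07. The difference between groups exceeded the larger replicate gap for 4 of the 11 member probe sets above the filter, and for 38.3% of all such probe sets. The arrays of the groups did not overlap for those 4 probe sets, as for 50.7% of all. The median standard error of the 7 tested members was 0.25, against 0.22 over all tested genes. The half-width of the 95% interval, which is not adjusted for the number of genes, ran from 0.47 for Grm4 to 0.97 for Grm7. With 2 arrays per group, smaller differences than these were not detectable for those genes. The threshold on the adjusted p required differences larger than the half-width.

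Genes that act with the receptors were read from 4 lists in the same fit, in which 13.5% of all tested genes were called and the median log2 fold change was -0.03. In the Gq and phospholipase C branch used by Grm5, MP amacrine cells were higher in 1 of 12 tested genes and lower in 3 (median log2 fold change -0.07). Plcb4, a phospholipase C beta, read 348.4 and 292.0 in MP amacrine cells and 1179 and 1427 in MP bipolar cells, which is -1.97 as a log2 fold change (SE 0.22, limma adjusted p = 7.22e-04). The cation channel gene Trpc1, a Homer partner, gave -1.72 (SE 0.29), and the calcium/calmodulin kinase genes gave -1.18 (SE 0.20) for Camk2b and 1.14 (SE 0.20) for Camk2a. Camk2a passed the filter on dim probe sets only through the MP amacrine arrays, where it was high, at 45.9 and 48.1 against 11.4 and 13.8 in MP bipolar cells.

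In the Gi/o and adenylyl cyclase branch used by group II and III receptors, MP amacrine cells were higher in 5 of 21 tested genes and lower in 2 (median 0.05). Kcnj3, a subunit of the G protein-gated potassium channel, read 1541 and 1554 in MP amacrine cells and 48.5 and 35.0 in MP bipolar cells, which is 4.77 as a log2 fold change (SE 0.23, limma adjusted p = 1.85e-05). Its 3 other probe sets above the filter had the same sign, from 0.25 to 1.73. Of 8 tested genes of adenylyl cyclases, grouped here after their values were seen, 3 were higher in MP amacrine cells, 1 was lower and 4 were not called. Higher were Adcy1 (2.54, SE 0.24), Adcy2 (2.08, SE 0.23) and Adcy6 (1.91, SE 0.24), and Adcy8 was lower (-3.13, SE 0.22). Adcy8 read 79.8 and 73.5 in MP amacrine cells, against 823.8 and 761.9 in MP bipolar cells. The inhibitory G protein genes Gnai1, Gnai2, Gnai3, Gnao1 and Gnaz, picked from the list after their values were seen, gave log2 fold changes from -0.22 to 0.14, and none passed. Without MP bipolar replicate 2 the number of genes of this branch higher in MP bipolar cells was 1.

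**Figure D4:**
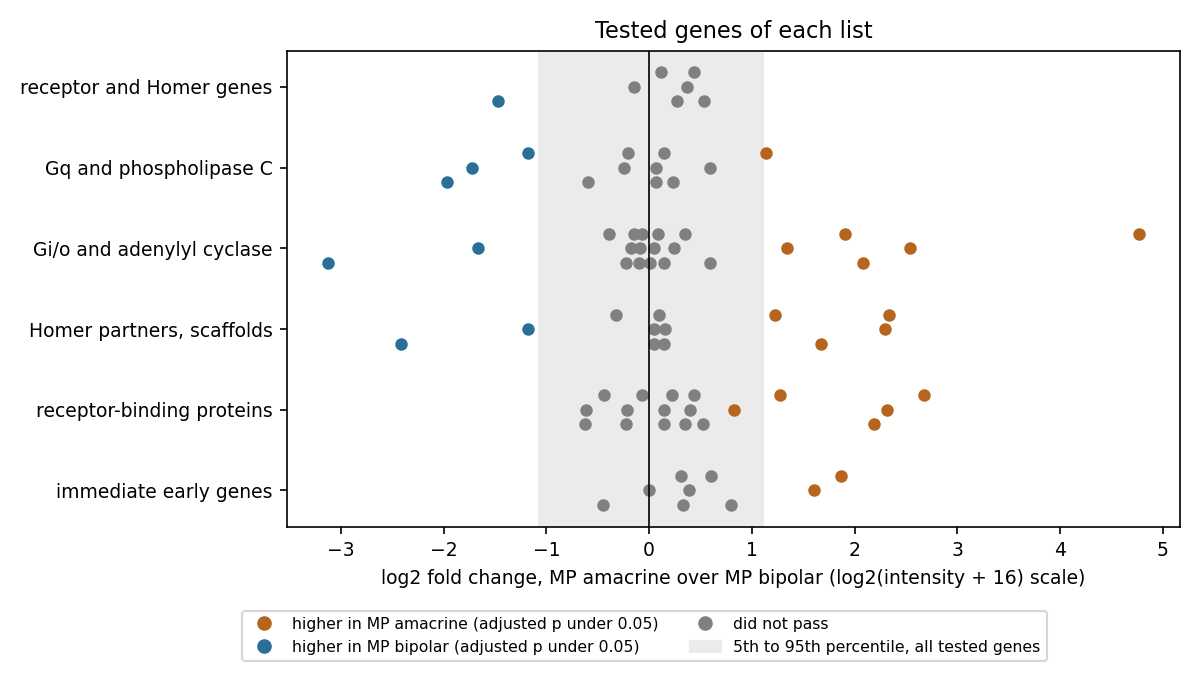
Log2 fold change (x axis, MP amacrine over MP bipolar) of every tested gene in the receptor and Homer group and in each list of associated genes, one row per list. Brown and blue points passed the test (adjusted p under 0.05) with the higher level in MP amacrine and in MP bipolar cells, grey points did not pass, and the band spans the 5th to 95th percentile of all tested genes, -1.07 to 1.10. Vertical offsets within a row separate points and carry no value.

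Homer partners and postsynaptic scaffolds numbered 12 tested genes, of which MP amacrine cells were higher in 4 and lower in 2 (median 0.12). Shank3, which encodes a scaffold that binds Homer, read 116.4 and 111.5 in MP amacrine cells and 9.27 and 11.7 in MP bipolar cells, which is 2.30 as a log2 fold change (SE 0.20, limma adjusted p = 2.17e-04). It passed the filter only through the MP amacrine arrays, where it was high. Ryr3, a calcium release channel gene, went the other way, at 76.5 and 76.2 in MP amacrine cells and 491.9 and 459.4 in MP bipolar cells, which is -2.41 as a log2 fold change (SE 0.21, limma adjusted p = 2.29e-04), while its other probe set above the filter gave -0.07. The Rac activator gene Tiam1 (2.33, SE 0.21) and the calcium channel gene Cacna1d (1.68, SE 0.24) were higher in MP amacrine cells, although another Tiam1 probe set gave -0.16. Without MP amacrine replicate 1 or without MP bipolar replicate 2, 1 gene of this list was higher in MP bipolar cells.

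Proteins that bind or regulate metabotropic receptors numbered 18 tested genes, of which MP amacrine cells were higher in 5 and lower in none (median 0.29). They were Grip1, a PDZ scaffold gene (2.67, SE 0.37), Caln1, a calneuron gene (2.31, SE 0.27), Rgs2, a regulator of Gq signalling (2.19, SE 0.22), Arrb1, an arrestin gene (1.28, SE 0.21), and Elfn1. Elfn1 encodes a postsynaptic protein that recruits group III receptors across the synapse. It read 86.4 and 66.4 in MP amacrine cells and 38.1 and 33.4 in MP bipolar cells, which is 0.83 as a log2 fold change (SE 0.21, limma adjusted p = 0.0402), and it was named after its values were seen. Elfn1 and Caln1 passed the filter only through the MP amacrine arrays, where they were high, so 2 of the 5 calls are of genes that had to differ to be tested. Its relative Elfn2 gave -0.44 and did not pass. Without MP bipolar replicate 1 the count higher in MP amacrine cells was 3, and without MP amacrine replicate 1 it was 4, with 1 gene higher in MP bipolar cells.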

How the data were processed

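Probe set intensities were deposited by the authors on a linear scale, 1 value per array for 45101 probe sets. RNA was isolated with the PicoPure kit and amplified and biotin-labelled with the MessageAmp kit, per the labels' protocols. How they were summarised, background-corrected and scaled is not stated in the labels, and the table has no detection calls. Samples were grouped by title.

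Control probe sets (64) were dropped. Of the others, the platform annotation names exactly 1 gene for 34945. Values were tested as log2(intensity + 16) in R 4.3.3 with limma 3.58.1, using lmFit and a trended eBayes. Tests were two-sided, and p-values were adjusted by Benjamini-Hochberg over 11583 tested genes or 23648 probe sets with a threshold of 0.05. The fit had 2 residual degrees of freedom. It was tested on simulated data. The number of arrays limits the precision.

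The members, lists, tests and naming rule were chosen with earlier results of these data known. From each list of associated genes the text names up to 4 called genes by size, from each marker list the 3 brightest, and the 3 genes nearest in pattern to the called member with the largest change. List genes lacking a single-gene probe set are not analysed here. Alternatives covered scaling, offset, filter, probe set choice, variance moderation, threshold, the replicate number as a block and each replicate left out.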

Additional observations from a re-analysis of the deposited data

How the results depend on the processing

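With 2 arrays per group, depth of detection cannot be read from the table, which has no background or detection values. The 1559 genes called overall became 785 with no filter on dim probe sets, and between 917 and 1939 with a replicate left out, lowest without MP bipolar replicate 2. The number of member genes called, 1, became 0 with no filter, with the filter at the 75th percentile (2 members tested, Homer2 not among them) and with the mean of all probe sets of a gene (5 members tested, Homer2 not among them), and was between 0 and 1 with a replicate left out. The number of member probe sets called, 0, became 1 at an adjusted p under 0.1 and with the replicate block, and was between 0 and 1 with a replicate left out. With the replicate block 1932 genes were called, and Homer2 was called again (-1.47, adjusted p = 2.53e-04, limma), but the samples share only a number, and the deviations of same-numbered samples correlated at -0.04 across tested genes. With a replicate left out, the log2 fold change ran from -0.15 to 1.21 for Grm7 and from -0.31 to 0.024 for Homer3, and among the 7 tested members both signs occurred for these genes only. Of the 119 values of single members under the alternatives, 113 kept their sign and their side of the threshold, and the 4 that lost the call were of Homer2. Changes of filter, threshold, variance moderation and block leave the log2 fold change of a probe set as it is, so its sign could not turn under them. The causes of the changed calls and signs were not tested beyond the smaller number of samples or the change in the number of genes tested.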
